A study of Mus musculus with 48 samples.

Results

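The enzymes that turn cytosolic acetyl-CoA into palmitate were followed through the livers of F1 mice whose sires had eaten a low protein diet or a control diet. The members were the 7 listed genes Acly, Acss2, Acaca, Acacb, Fasn, Me1 and Thrsp, out of 13542 genes tested, and each was read from the probe set with 1 gene symbol and the highest mean over the 48 arrays. They are listed by name, and they were chosen with earlier results of these data known. There were 6 groups of 8 arrays: ATF7+/- offspring of low protein (LPD) and of control diet (CD) sires, ATF7+/+ offspring of LPD and of CD sires, and wild-type offspring of LPD and of CD sires. All livers were median lobes taken at 3 weeks of age, and the sires had received their diet from 3 to 12 weeks of age. ATF7 is a stress-responsive transcription factor, and a plus or minus marks its allele. The labels describe neither the minus allele nor what sets ATF7+/+ animals apart from wild-type ones. They give no sex per sample, only that animals were male or female, and no genotype or diet of the dams. The sample titles name no sire or litter, so the tests below took offspring as units. The comparisons ask whether the paternal diet was followed by a different offspring liver transcriptome, and whether that difference was alike under the 3 genotype labels.

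De novo lipogenesis builds fatty acids from sugar-derived carbon, and the liver is one of its main sites. ATP citrate lyase (Acly) makes acetyl-CoA from citrate and acetyl-CoA synthetase 2 (Acss2) makes it from acetate. The acetyl-CoA carboxylases Acaca and Acacb turn it into malonyl-CoA, fatty acid synthase (Fasn) joins malonyl units into palmitate with NADPH, part of which comes from malic enzyme 1 (Me1), and Thrsp (Spot 14) is a small protein induced together with these enzymes. In the liver these genes are known targets of SREBP-1c, ChREBP, LXR and thyroid hormone, and they rise at weaning onto a carbohydrate diet.

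The genes lie on 5 mouse chromosomes in GRCm38.p6. Acly is at chr11:100476352-100528000, Acaca at chr11:84129635-84401651 and Fasn at chr11:120805958-120825166. Acss2 is at chr2:155518043-155562743, Acacb at chr5:114146321-114250761, Me1 at chr9:86581363-86695914 and Thrsp at chr7:97412933-97417550. RefSeq windows from 250 bases before to 50 bases after a start site were matched for all 7 members, with a pair of windows for Me1. Of these, 4 are printed because their genes had the 2 diet differences with the smallest p and the 2 widest spreads in the control group of wild-type offspring. Capitals mark the NF-Y box CCAAT and the GC box GGGCGG on either strand.
Acss2 (chr2:155517793-155518092, plus strand): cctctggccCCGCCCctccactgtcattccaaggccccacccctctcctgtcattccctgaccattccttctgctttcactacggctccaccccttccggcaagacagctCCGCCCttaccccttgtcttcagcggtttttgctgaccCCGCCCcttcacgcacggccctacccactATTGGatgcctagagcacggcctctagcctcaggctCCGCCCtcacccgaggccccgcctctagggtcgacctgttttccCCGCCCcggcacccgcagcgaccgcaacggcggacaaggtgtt
Acacb (chr5:114165268-114165567, plus strand): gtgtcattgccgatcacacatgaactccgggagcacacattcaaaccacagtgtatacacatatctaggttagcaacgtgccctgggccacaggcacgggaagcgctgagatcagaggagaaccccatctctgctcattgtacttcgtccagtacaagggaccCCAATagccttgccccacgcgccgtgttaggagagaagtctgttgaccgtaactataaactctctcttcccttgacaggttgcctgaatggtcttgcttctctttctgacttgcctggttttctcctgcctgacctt
Fasn (chr11:120824498-120824797, minus strand): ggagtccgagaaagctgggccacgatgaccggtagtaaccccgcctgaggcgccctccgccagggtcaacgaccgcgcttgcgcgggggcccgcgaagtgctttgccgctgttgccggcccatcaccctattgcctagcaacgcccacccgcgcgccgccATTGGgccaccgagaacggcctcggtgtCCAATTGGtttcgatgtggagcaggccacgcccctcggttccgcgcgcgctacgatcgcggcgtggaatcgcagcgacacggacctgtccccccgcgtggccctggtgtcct
Thrsp (chr7:97417501-97417800, minus strand): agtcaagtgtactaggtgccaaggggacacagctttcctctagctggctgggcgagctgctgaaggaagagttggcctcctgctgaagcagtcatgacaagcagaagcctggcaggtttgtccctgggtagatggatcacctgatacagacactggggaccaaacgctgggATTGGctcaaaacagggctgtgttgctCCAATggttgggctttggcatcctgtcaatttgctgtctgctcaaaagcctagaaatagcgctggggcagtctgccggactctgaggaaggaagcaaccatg
In the Fasn window, a forward and a reverse NF-Y box overlap in the palindrome CCAATTGG at bases -62 to -55 from the start site, and another reverse box lies at bases -90 to -86. The Thrsp window holds a reverse box at bases -79 to -75 and a forward box at bases -52 to -48. A single box lies at bases -73 to -69 for Acss2 and -87 to -83 for Acacb, and the Acss2 window has 5 GC boxes. CCAAT on either strand was found for 6 of 7 members (all but Acaca), against 37.4% of 32851 windows of this length, and GGGCGG for 3 of 7 (Acly, Acss2 and Me1), against 35.7% of windows. The percentages count single windows, whereas Me1 was counted if either of its windows matched. Its CCAAT lies only in the window inside the gene (bases -208 to -204), and its GGGCGG only in the other. The sterol element TCACNCCAC was found in 0 members and 1.24% of windows, the E box CACGTG in 0 and 7.15%, and the cAMP element TGACGTCA in 0 and 1.79%, all read on both strands. Its core TGACG was found in 0 members and 20.8% of windows. The Acaca, Acacb and Fasn windows and 1 of the Me1 windows lie inside the annotated gene and need not mark its outermost start, and a match is a description of letters.

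Some facts of the arrays bear on every value. The deposited values are log2 expression, on which 1 unit is a 2-fold difference, and levels of different probe sets cannot be ranked against each other. Replicates 4 and 5 of wild-type CD and replicates 7 and 8 of ATF7+/+ CD were near-identical: their differences on variable genes were 1.28 and 1.25 times those on stable genes, against 1.91 to 5.18 for other pairs. Each such pair was averaged and counted once, so n = 7 in wild-type CD and ATF7+/+ CD and n = 8 in the other groups. Probe sets with no listed gene divided the arrays into set A, with 3 arrays of each group, and set B, with 5 of each, a division the labels do not mention. Within-set values are therefore given below for the diet comparisons and for part of the comparisons between labels. All 7 hepatocyte markers tested lay from the 99.7th percentile of genes up, with Alb at 13.51. Atf7 averaged 8.67 ± 0.15 in ATF7+/- LPD and 8.65 ± 0.15 in ATF7+/- CD, 9.005 ± 0.11 in ATF7+/+ LPD and 9.05 ± 0.26 in ATF7+/+ CD, and 8.81 ± 0.10 in wild-type LPD and 8.91 ± 0.16 in wild-type CD (SD). Its difference of ATF7+/- from wild-type under CD was -0.26 (limma adjusted p = 0.0956), and whether its probes lie in the altered part of the gene was not examined here.

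In wild-type offspring, all 7 members were higher after the paternal low protein diet than after the control diet. Their log2 differences, LPD minus CD, ran between 0.96 for Acaca and 1.91 for Acss2, with a median of 1.54 against 0.0036 over all genes tested. Each passed an adjusted p of 0.05 (limma, Benjamini-Hochberg over 13542 genes), where 377 genes or 2.78% rose and 487 or 3.6% were called in either direction. Acss2 and Acacb ranked 9 and 17 by p among all genes, and for these 2 members the groups did not overlap, which 0.45% of genes showed in this direction. In whole liver, fewer cells of a type and less RNA per cell cannot be told apart.

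**Figure D1:**
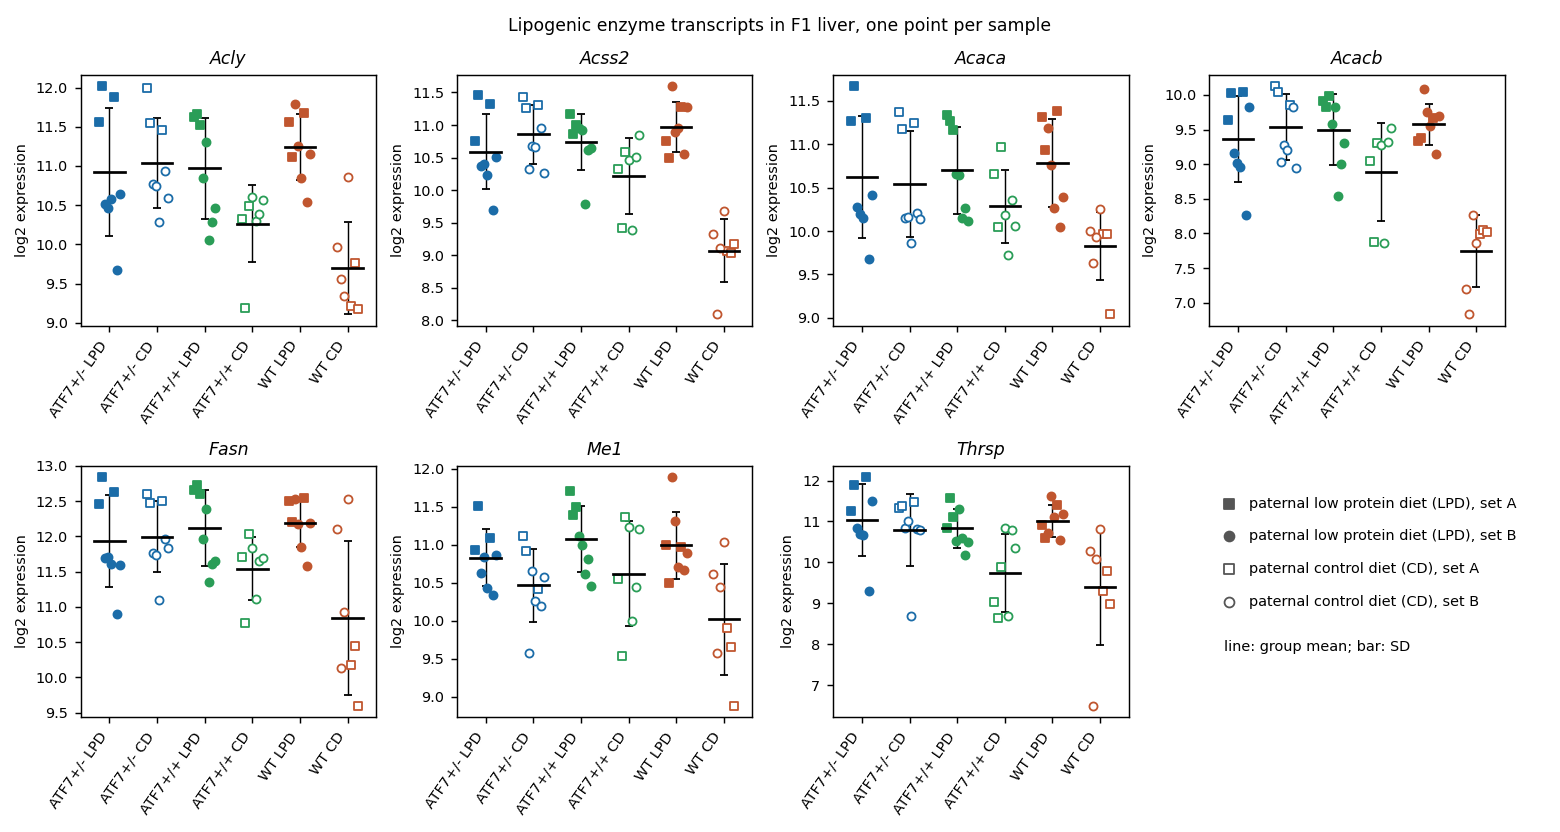
Log2 expression of the 7 genes (vertical axes) in each sample of the 6 groups (horizontal axes), with filled symbols for LPD, open symbols for CD, squares for array set A, circles for set B, lines for group means and bars for the SD. Wild-type CD has the lowest mean in every panel, 9.07 for Acss2 and 7.75 for Acacb, and its Fasn points spread over 9.60 to 12.525.

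Acss2, which captures acetate as acetyl-CoA, had the largest mean difference and the smallest p of the 7. Its level was 10.50, 10.925 and 11.60 (lowest, median and highest) in wild-type LPD and 8.09, 9.11 and 9.68 in wild-type CD. Every LPD sample lay above every CD sample. The difference was 1.91 ± 0.24 (SE), or 3.75-fold, with an adjusted p of 9.73e-07. Its lowest CD sample, replicate 2 at 8.09, stood apart from the other 6, which held 9.03 to 9.68.

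Acly supplies acetyl-CoA from mitochondrial citrate and had 10.54, 11.20 and 11.79 in wild-type LPD, against 9.18, 9.56 and 10.86 in wild-type CD. The groups overlapped through 1 CD sample, the averaged pair of replicates 4 and 5, since the other CD samples reached at most 9.97. The log2 difference was 1.54 ± 0.30 (2.92-fold, adjusted p = 0.00138). Me1, the NADPH-producing malic enzyme of the cytosol, had 10.50, 10.93 and 11.89 in wild-type LPD and 8.88, 9.90 and 11.04 in wild-type CD. Most of the LPD samples, 6 of 8, lay below the highest CD value, so its groups were the less separated. It rose by 0.98 ± 0.27 (1.97-fold, adjusted p = 0.0269), and a second Me1 probe set gave 1.05 (adjusted p = 0.031). Leaving out wild-type CD replicate 7 or 8 or wild-type LPD replicate 3 or 4 ended the Me1 call (adjusted p up to 0.117).

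The carboxylases differed in how far they separated. Acacb, the isoform at the mitochondrial surface whose malonyl-CoA restrains fatty acid import by Cpt1, held 9.14, 9.605 and 10.09 in wild-type LPD and 6.83, 7.99 and 8.27 in wild-type CD. Nothing overlapped, and the rise was 1.83 ± 0.27 (3.55-fold, adjusted p = 1.35e-05). Acaca, the cytosolic isoform that feeds Fasn, had 10.05, 10.845 and 11.38 in wild-type LPD and 9.04, 9.96 and 10.25 in wild-type CD. Only the lowest LPD and the highest CD sample crossed. Its rise was 0.96 ± 0.27 (1.94-fold, adjusted p = 0.0314), the smallest of the 7, and the second Acaca probe set gave 1.03 without passing (adjusted p = 0.0626). The Acaca call ended without wild-type CD replicate 8 or without wild-type LPD replicate 1, 3 or 6 (adjusted p up to 0.116).

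Fasn, the synthase, had 11.58, 12.195 and 12.54 in wild-type LPD and 9.60, 10.44 and 12.525 in wild-type CD. Of the CD samples, replicate 1 (12.11) and the pair 4 and 5 (12.525) lay within the LPD range while the other 5 were at 10.93 or below. Fasn rose by 1.35 ± 0.31 (2.55-fold, adjusted p = 0.00779). Thrsp had 10.54, 11.015 and 11.63 in wild-type LPD and 6.50, 9.79 and 10.81 in wild-type CD. The control spread was wide, with an SD of 1.41 against 0.39 in LPD, and replicate 2 was at 6.50 while the other 6 lay between 8.99 and 10.81. Thrsp rose by 1.62 ± 0.44 (3.08-fold, adjusted p = 0.0257). Without that replicate the rise was 1.14 and no longer passed, and without CD replicate 8 it did not pass either (adjusted p up to 0.0787).

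**Figure D2:**
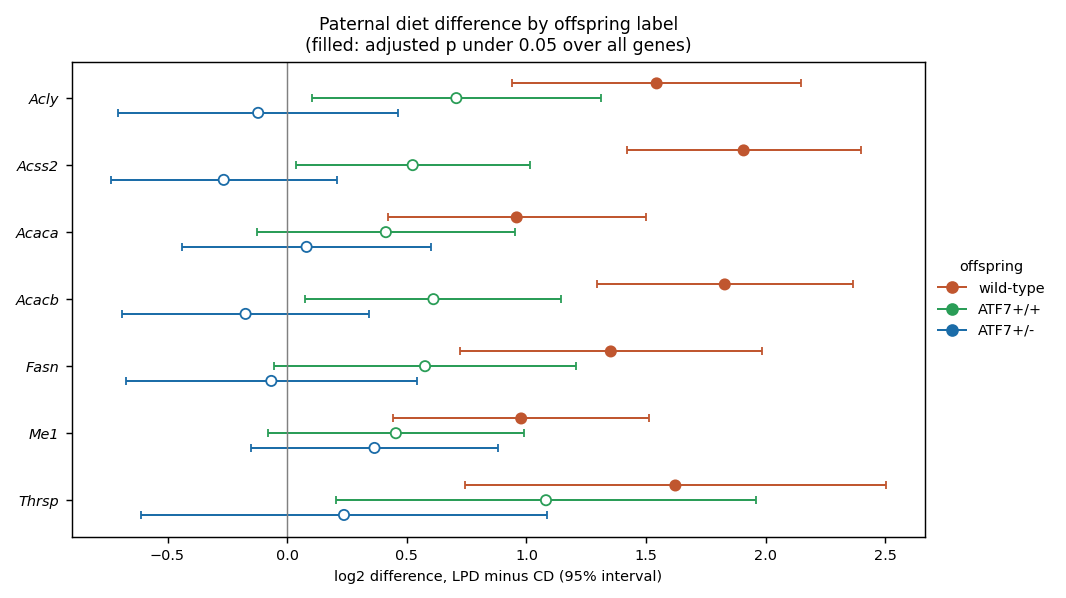
Log2 difference, LPD minus CD (horizontal axis), of each gene (vertical axis) in wild-type, ATF7+/+ and ATF7+/- offspring, with 95% intervals and filled points for an adjusted p under 0.05 over all genes. All 7 wild-type points are filled, between 0.96 and 1.91, and the 7 ATF7+/- points, all open, lie between -0.27 and 0.37.

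In ATF7+/- offspring, 0 of 7 members passed in the diet comparison, where 0 of 13542 genes (0%) passed and 178 had an unadjusted p under 0.05 in limma. Acss2 averaged 10.59 ± 0.58 in ATF7+/- LPD and 10.86 ± 0.45 in ATF7+/- CD (SD, n = 8 each), a difference of -0.27 with a 95% interval of -0.74 to 0.21. Acacb averaged 9.37 ± 0.62 in ATF7+/- LPD and 9.54 ± 0.47 in ATF7+/- CD, a difference of -0.17 (-0.69 to 0.34). All 4 of these means lay above the highest wild-type CD sample. For Fasn the means were 11.93 ± 0.65 in ATF7+/- LPD and 12.00 ± 0.51 in ATF7+/- CD, and the interval of the difference was -0.68 to 0.54. The other differences were -0.12 for Acly, 0.08 for Acaca, 0.24 for Thrsp and 0.37 for Me1, so that signs were mixed. Me1 held 10.34, 10.85 and 11.51 (lowest, median and highest) in ATF7+/- LPD and 9.57, 10.50 and 11.11 in ATF7+/- CD, and Acaca held 9.68, 10.345 and 11.67 in ATF7+/- LPD and 9.86, 10.185 and 11.37 in ATF7+/- CD. Thrsp had 9.29, 11.04 and 12.08 in ATF7+/- LPD and 8.70, 10.92 and 11.47 in ATF7+/- CD. For Thrsp, CD replicate 5 stood apart at 8.70, against 10.79 to 11.47 in the other 7 CD samples. The lowest LPD sample, replicate 7 at 9.29, was also the lowest of its group for Acly (9.67), Acss2 (9.69), Acaca (9.68), Acacb (8.26), Fasn (10.90) and Me1 (10.34).

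In ATF7+/+ offspring all 7 differences were positive, between 0.41 for Acaca and 1.08 for Thrsp, and 0 passed (adjusted p of 0.945 to 1). Here 1 gene, or 0.00738%, was called and 621 had an unadjusted p under 0.05 in limma. Thrsp had 10.18, 10.72 and 11.57 (lowest, median, highest) in ATF7+/+ LPD and 8.64, 9.89 and 10.83 in ATF7+/+ CD, and the 95% interval of its difference was 0.20 to 1.96. Acly averaged 10.97 ± 0.64 in ATF7+/+ LPD and 10.26 ± 0.49 in ATF7+/+ CD, a difference of 0.71 with an interval of 0.10 to 1.31. Acacb, with 8.54, 9.70 and 9.99 in ATF7+/+ LPD and 7.86, 9.27 and 9.525 in ATF7+/+ CD, differed by 0.61 (0.08 to 1.15). For Acss2 the difference was 0.52 (0.04 to 1.01), with 9.79, 10.89 and 11.17 in ATF7+/+ LPD and 9.38, 10.46 and 10.845 in ATF7+/+ CD. These 4 intervals lie above 0 before adjustment over all genes, and those of Fasn at 0.58, Me1 at 0.45 and Acaca at 0.41 reach below 0. The groups overlapped for every member, and 0.0369% of genes were higher without overlap.

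The diet difference itself was then compared between labels. In wild-type minus ATF7+/- offspring it differed for 3 members: Acss2 by 2.17 ± 0.34 (SE, adjusted p = 0.000115), Acacb by 2.0025 ± 0.37 (adjusted p = 0.00146) and Acly by 1.67 ± 0.42 (adjusted p = 0.0434). Of all genes, 86 or 0.635% passed in either direction. The acetate-using synthetase and the mitochondrial carboxylase thus had the widest differences in response between these labels. The other 4 did not pass, with Fasn at 1.42 (adjusted p = 0.131), Thrsp at 1.38 (0.418), Acaca at 0.88 (0.383) and Me1 at 0.61 (0.671). The Acly call was lost in 19 of 31 fits with 1 sample left out (adjusted p up to 0.0918). With the replicate number as a block, Acaca also passed (0.95, adjusted p = 0.0281).

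Between wild-type and ATF7+/+ offspring 0 members differed in their diet response, against 3 genes or 0.0222%, with 956 at an unadjusted p under 0.05 in limma. The widest was Acss2, at 1.38 ± 0.34 with an adjusted p of 0.109. Its interval of 0.69 to 2.07 lies above 0 before adjustment. Between ATF7+/+ and ATF7+/- offspring the differences lay between 0.09 and 0.84, 0 members and 0 genes (0%) passed, and 380 genes had an unadjusted p under 0.05 in limma.

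Set against each other within 1 paternal diet, the labels differed after the control diet. ATF7+/- CD livers were higher than wild-type CD livers for 4 members: Acacb by 1.80 ± 0.27 (3.47-fold, adjusted p = 2.51e-05), Acss2 by 1.79 ± 0.24 (3.46-fold, adjusted p = 5.59e-06), Acly by 1.34 ± 0.30 (adjusted p = 0.0096) and Fasn by 1.15 ± 0.31 (adjusted p = 0.0428). In that comparison 158 genes or 1.17% rose and 1.65% were called in either direction. Again Acss2 and Acacb did not overlap, at 10.26 to 11.43 in ATF7+/- CD against 8.09 to 9.68 in wild-type CD for Acss2, and 8.95 to 10.13 against 6.83 to 8.27 for Acacb. Of all genes, 0.266% did not overlap in this direction. Thrsp, Acaca and Me1 were at 1.40, 0.71 and 0.45 without passing (adjusted p of 0.0875, 0.194 and 0.502). The Fasn call was lost in 10 of 15 fits that left out 1 sample (adjusted p up to 0.15). Within array sets, Fasn gave 2.45 in set A and 0.26 in set B (adjusted p = 0.716). Acly gave 2.28 and 0.73 (0.132), and Me1 1.34 and -0.17. Acss2 (2.24 and 1.52) and Acacb (1.99 and 1.72) passed in both sets. Set A alone called 7 members and 898 of 13542 genes, and set B alone 2 members and 447 genes.

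ATF7+/+ CD livers were higher than wild-type CD livers for Acss2 by 1.15 ± 0.25 (adjusted p = 0.0241) and for Acacb by 1.14 ± 0.27 (adjusted p = 0.0474), where 39 genes or 0.288% rose and 0.347% were called in either direction. Acss2 had 9.38, 10.46 and 10.845 in ATF7+/+ CD, against 8.09, 9.11 and 9.68 in wild-type CD. The groups overlapped, since ATF7+/+ CD replicates 2 (9.42) and 5 (9.38) lay within the wild-type CD range. In Acacb, ATF7+/+ CD replicates 2 (7.87) and 5 (7.86) fell within the wild-type CD range, and the other 5 samples held 9.04 to 9.525. The Acss2 call ended in 7 and the Acacb call in 10 of 14 fits that left out 1 sample, and neither passed when these groups were fitted alone. ATF7+/- CD against ATF7+/+ CD gave 0 members and 0 genes (0%), with 914 genes at an unadjusted p under 0.05 in limma, and the widest member difference was 1.05 for Thrsp. These comparisons and the wild-type diet comparison share the wild-type CD samples.

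After the low protein diet, 0 members and 0 genes (0%) passed in any of the 3 pairs of labels. At an unadjusted p under 0.05, limma gave 377 genes for ATF7+/- against wild-type, 1130 for ATF7+/+ against wild-type and 908 for ATF7+/- against ATF7+/+. Member differences from wild-type LPD lay between -0.38 and 0.02 in ATF7+/- LPD and between -0.27 and 0.08 in ATF7+/+ LPD. The array sets taken alone gave opposite signs for all 7 genes, and 0 members passed in either set. For ATF7+/- LPD the differences were 0.21 to 0.77 in set A and -0.81 to -0.39 in set B. For ATF7+/+ LPD they were 0.05 to 0.71 in set A and -0.52 to -0.17 in set B. Over all 13542 genes, set A alone called 6 for ATF7+/- against wild-type and 1740 for ATF7+/+ against wild-type. It called 1218 for ATF7+/- against ATF7+/+, and set B alone called 0 in each pair. Ordered by mean, wild-type CD was the lowest of the 6 groups for all 7 genes. The gap to the next group, taken against the larger of the 2 SDs, exceeded it for Acss2 (1.15), Acacb (1.14) and Acaca (0.46), each next to ATF7+/+ CD, and not for Acly, Fasn, Me1 or Thrsp. The only other such gap lay between ATF7+/- CD and ATF7+/+ CD for Thrsp (1.05), so the upper groups cannot be ranked.

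Members' mean levels also differed between the array sets. Acly averaged 11.82 on set A and 10.38 on set B in ATF7+/- LPD, 11.67 and 10.66 in ATF7+/- CD, and 11.45 and 11.12 in wild-type LPD, while wild-type CD had 9.38 on set A and 9.93 on set B. Fasn showed the same turn, with 12.42 on set A and 12.07 on set B in wild-type LPD and 10.07 and 11.42 in wild-type CD. In wild-type offspring the diet difference was positive for all 7 members in both sets. It passed for 7 of 7 in set A alone and for 3 of 7 in set B alone, which were Acacb at 2.11 (adjusted p = 0.000337), Acss2 at 2.0015 (0.000153) and Acly at 1.18 (0.0103). Over all genes tested, the set A fit also called more than the 487 of the main fit, with the count given in the closing section. The 7 of 7 therefore stands beside a larger share of all genes than in the main fit. Fasn gave 2.34 in set A and 0.64 in set B (adjusted p = 0.263), and Acaca 1.55 and 0.58 (0.0657).

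In ATF7+/+ offspring the set A arrays alone gave 4 members that passed: Thrsp at 1.99 (adjusted p = 0.00543), Acly at 1.60 (0.00997), Acacb at 1.17 (0.046) and Fasn at 1.16 (0.046). Of 13542 genes, 59 passed there. On set B, where 0 members passed, all 7 differences lay between 0.08 and 0.45. In ATF7+/- offspring 0 members passed in either set. What separates the sets was not tested.

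**Figure D3:**
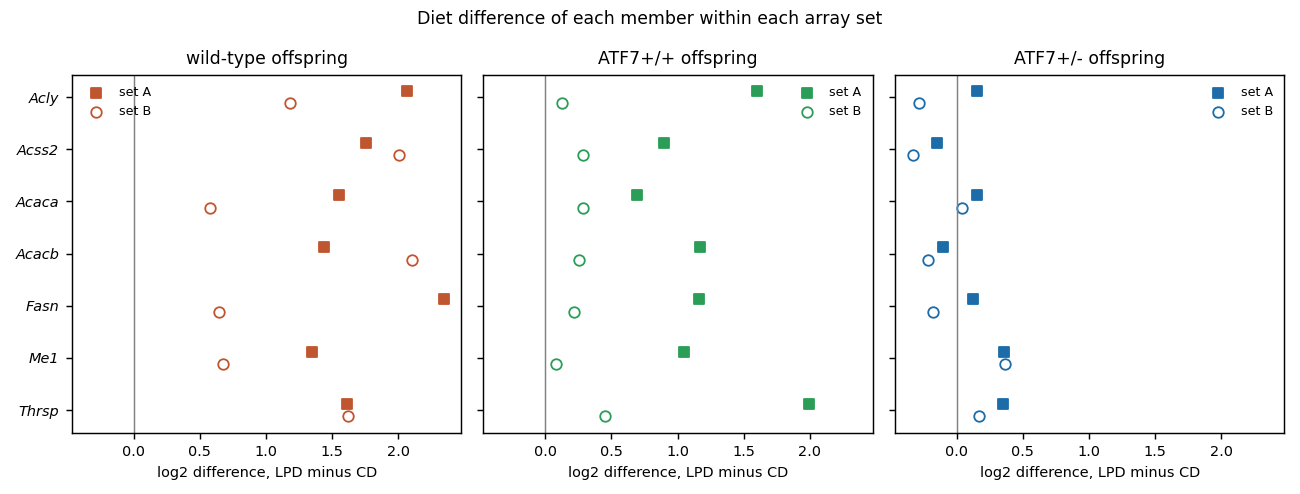
Log2 difference, LPD minus CD (horizontal axis), of each gene (vertical axis) within array set A (filled squares) and set B (open circles), with 1 panel per label. Wild-type points are above 0 in both sets, ATF7+/+ points are further right in set A (0.69 to 1.99) than in set B (0.08 to 0.45), and ATF7+/- points lie between -0.33 and 0.37.

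The 7 genes varied together across samples, but not fully in wild-type CD. As a description over the 46 samples, which share arrays, normalization and groups, Pearson's r between members ran from 0.64 for Me1 with Thrsp to 0.95 for Acss2 with Acacb. Taken as deviations from group and array-set means, it ran from 0.53 for Me1 with Thrsp to 0.86 for Acss2 with Acacb. Within wild-type CD alone (n = 7), r was lowest for Acacb with Acly (-0.17), Fasn (-0.13), Me1 (-0.02) and Acaca (0.04). There Acacb had 0.56 with Acss2 and 0.60 with Thrsp, and Fasn had 0.94 with Me1. For the other groups taken singly r was not examined here, so this cannot be called particular to wild-type CD. In wild-type CD replicate 1, Fasn stood at 12.11 and Acacb at 7.19, and in the pair 4 and 5 Fasn stood at 12.525 and Acacb at 7.865. These 2 samples had Fasn levels of the LPD livers beside the low Acacb levels of their own group. In replicate 2, by contrast, Fasn (10.13), Acss2 (8.09), Acacb (6.83) and Thrsp (6.50) were all low.

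**Figure D4:**
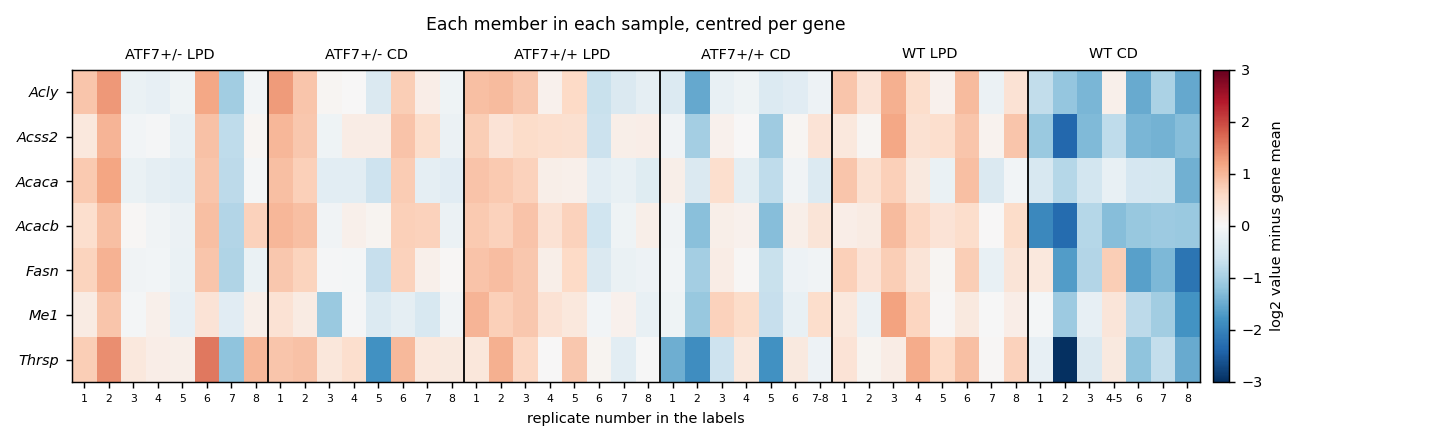
Colour gives each gene's log2 value minus its mean over samples (rows, genes; columns, samples by group and replicate number), on a scale that ends at -3 and 3. Wild-type CD is blue for Acss2 and Acacb in every sample and light red for Fasn in replicate 1 and the pair 4 and 5; the Thrsp value of replicate 2, at -4.01, lies past the scale.

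**Figure D5:**
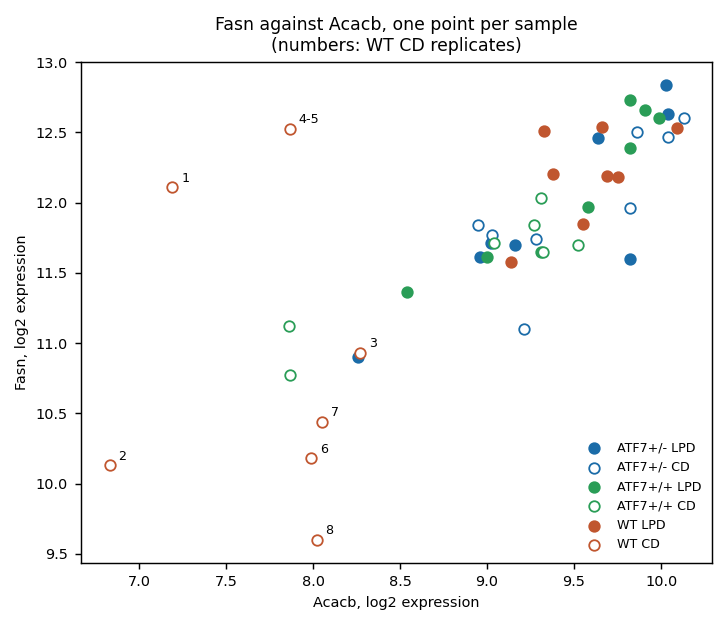
Fasn (vertical axis) against Acacb (horizontal axis), both log2 expression, 1 point per sample, with wild-type CD replicates numbered. Wild-type CD replicate 1 and the pair 4 and 5 lie above the band of the other samples, at Fasn 12.11 and 12.525.

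Genes outside the members were ranked by Pearson's r with the members' centred mean over the 46 samples. Elovl6, which lengthens palmitate, came first at 0.92, then Aacs (acetoacetyl-CoA synthetase) at 0.91 and Pnpla3 at 0.89. Pmvk (0.87), Cyp51 (0.86) and Idi1 (0.83) belong to cholesterol synthesis. Pklr, the liver pyruvate kinase, stood at 0.84 and Tkt (transketolase) at 0.83, beside Chrna4 and Rdh11, both at 0.86. On deviations from group and array-set means Elovl6 (0.92) and Aacs (0.84) again came first. Of single members, Acss2 was most like Pmvk (0.92), Rdh11 (0.88) and Mgam (0.84), and Acacb was most like Fabp5 (0.87), Pdzk1ip1 (0.85) and Mgam (0.85). Acly followed Aacs and Gpam (0.90 each) and Chrna4 (0.89), and Acaca followed Chrna4 (0.89), Pnpla3 (0.88) and Acsl5 (0.87). Fasn was most like Aacs and Elovl6 (0.91 each) and Cyp51 (0.87), Me1 most like Elovl6 (0.88), Tkt (0.84) and Gbe1 (0.83), and Thrsp most like Aacs (0.87), Elovl6 (0.83) and Stard4 (0.80).

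Upstream of the members, 10 of 18 tested genes of acetyl-CoA and NADPH supply rose in wild-type LPD over CD and 0 fell, with a list median of 0.31 against 0.0036 over all genes. Tkt of the pentose phosphate pathway rose by 0.60 ± 0.11 (adjusted p = 0.000416) and Pgd, its NADPH-making dehydrogenase, by 0.88 (0.00417). The monocarboxylate carrier Slc16a1 rose by 0.76 (0.000759) and the mitochondrial acyl-CoA synthetase Acss3 by 0.84 (0.00393). Under the same test 0 of 19 genes passed in a list that includes partners and brakes of the carboxylases and the synthase. Its smallest p were those of Mecr at 0.35, Aasdhppt at 0.37, Dbi at 0.31 and Trib3 at -0.45 (adjusted p of 0.053, 0.0598, 0.111 and 0.166).

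Among 20 lipogenic transcription factors and SREBP processing genes, 3 rose and 0 fell: Srebf2, the regulator of sterol synthesis, by 0.50 (adjusted p = 0.00111), Scap, the escort of SREBPs, by 0.45 (0.0103), and Insig1, their retention factor and itself an SREBP target, by 0.84 (0.022). The fourth by p, Nfyb, an NF-Y subunit, was at 0.28 (0.24). Srebf1 stood at -0.11 (0.872) and Mlxipl, which encodes ChREBP, at -0.08 (0.878), and these 2 were named after their values were seen. Downstream, 7 of 16 elongases and desaturases rose and 0 fell, led by Elovl5 at 0.90 (adjusted p = 2.18e-05), Scd1 at 0.37 (0.000675), Elovl6 at 1.45 (0.00137) and Fads1 at 0.48 (0.00422). In acyl-CoA activation and triglyceride assembly, 3 of 15 rose (Mttp at 0.36, Acsl5 at 0.62 and Pnpla3 at 1.49) and 1 fell (Gpat4 by 0.47), with adjusted p between 0.00926 and 0.0243.

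Cholesterol synthesis moved as a whole list: 17 of 17 tested genes rose in wild-type offspring, with a median of 1.34. Squalene epoxidase Sqle rose by 2.21 ± 0.26 (adjusted p = 4.44e-07), Nsdhl by 1.88 (1.22e-06), Dhcr7 by 1.34 and Pmvk by 1.33 (5.79e-07 each). All 17 also differed in their diet response between wild-type and ATF7+/- offspring, where 3 of 7 members did. Under the control diet 17 of 17 were higher in ATF7+/- than in wild-type, and 11 of 17 in ATF7+/+ than in wild-type. Of 11 tested genes of sugar handling and ChREBP targets, 2 rose in wild-type LPD, Pklr by 1.05 (adjusted p = 0.0017) and the fructokinase Khk by 0.56 (0.00478), while Gpd1 at 0.40 and Tkfc at 0.32 did not pass (0.156 and 0.193). Of 14 fasting genes 0 passed, with Pdk4 at 0.93, G6pc at 0.52, Fbp1 at 0.20 and Fgf21 at -0.33 (adjusted p between 0.102 and 0.604). In ATF7+/- and ATF7+/+ offspring 0 genes of any of these lists passed in the diet comparison, with list medians of -0.27 and 0.20 for cholesterol synthesis.

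Clock genes and markers of other cell types were read in the same wild-type comparison. Of 15 clock genes, 1 passed (Tef, which fell by 0.77, adjusted p = 0.0468), and Per2 at -0.76, Ciart at -1.64 and Usp2 at -1.17 did not (0.0607, 0.0913 and 0.144). Of the 15 differences 5 were positive, with a list median of -0.34. The positive ones were Arntl at 0.96 (adjusted p = 0.155), Clock at 0.30, Nfil3 at 0.26, Cry1 at 0.21 and Nr1d1 at 0.07. These were named after their values were seen. The clock list mean, centred per gene, ran from -0.46 to 0.63 in wild-type LPD and from -0.04 to 0.71 in wild-type CD, ranges that overlap. Since the genes differed in both directions, this mean cannot show whether they shifted against each other. Times of collection are not given in the labels. Of 6 markers of stellate cells and fibroblasts, 3 rose, with centred list means of -0.09 to 0.26 in wild-type LPD and -0.60 to -0.03 in wild-type CD. Of 6 endothelial markers 1 rose (means of 0.01 to 0.28 in LPD and -0.37 to 0.32 in CD), and of 2 tested erythroid markers 1 rose (-0.17 to 0.91 in LPD and -0.97 to 1.25 in CD). The part of these measures in the members' difference was not tested. Adipocytes also use these enzymes: 4 adipocyte markers (Plin1, Retn, Fabp4 and Lipe) passed the filter, and 0 of those were called. Their centred mean ran from -0.08 to 0.16 in wild-type LPD and from -0.22 to 0.15 in wild-type CD. The adipocyte markers differed in level. Adipoq was at the 8.22th percentile of genes, Cidea at the 13.5th and Lep at the 21.0th. Retn and Plin1 were at the 37.3th each, Lipe at the 67.5th and Fabp4 at the 68.4th. Of the hepatocyte, Kupffer cell, granulocyte, lymphocyte and cholangiocyte markers, 0 of 7, 6, 3, 3 and 3 tested genes passed.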

How the data were processed

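Liver RNA of 48 F1 mice was labelled and hybridized to Affymetrix gene arrays. Per the submitters' processing notes, the authors used RMA and Affymetrix Expression Console (no version given) for the deposited log2 values per probe set. The notes do not state whether the 48 arrays were normalized as a single batch. They were used as deposited. Arrays carry no read depth, and their number limits the precision.

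Of 35556 probe sets, 21789 carried 1 gene symbol, 1621 carried several and 12146 were not listed. Probe sets with 1 symbol and a mean at or above the 40th percentile (5.46) were kept, 1 per gene by highest mean, which left 13542 genes; all 7 members passed. For the array sets, a principal component analysis of 5591 probe sets without a listed gene was divided at the widest gap of its leading component. Pairs of arrays with a spread ratio under 1.5 were averaged. Group means of the 46 samples were fitted with limma 3.58.1 in R 4.3.3 (data.table, version 1.17.8), with 12 two-sided contrasts, each adjusted over all genes after Benjamini and Hochberg, with a threshold of 0.05. The steps were tested on simulated data.

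Every member was named in every comparison, and of each list up to 4 genes with the smallest p in the wild-type diet comparison. The 10 genes most like the members' mean, 3 per member and Atf7 were also named, as were the clock genes with positive differences and the adipocyte markers. The members and the lists were chosen with earlier results of these data known. Promoter windows came from RefSeq (GRCm38.p6).

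Same-numbered samples of the LPD and CD groups were correlated (r of deviations from group means) at 0.18 to 0.74 in ATF7+/- (8 of 8 over 0.1) and 0.30 to 0.67 in ATF7+/+ (7 of 7), and at -0.47 to 0.50 in wild-type (2 of 7). Within array sets r was -0.04 to 0.38, -0.16 to 0.35 and -0.24 to 0.10. The main fit leaves the number out, since the design text describes the 8 arrays per group as independent. A second fit took the number as a block for each label. Samples that may share a sire or litter could not be accounted for. Other alternatives were no filter or 1 at the 60th percentile, quantile normalization, median centring, all probe sets of a gene, array weights, a trended and robust variance prior, a fit of only the compared groups, the array set as a block, each set alone, the mean of 3 Y-linked genes as a covariate, 48 unaveraged arrays, and leaving out each sample. Python 3.11.15 and matplotlib 3.10.9 drew the figures.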

Additional observations from a re-analysis of the deposited data

Results flagged for a closer look

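The diet difference, LPD minus CD, differed between wild-type and ATF7+/- offspring by the test of the difference itself for Acss2 (2.17), Acacb (2.0025) and Acly (1.67). Single samples stood apart from their groups in 5 of 42 combinations of gene and group, where chance gives about 1 in 20. Acly was at 9.19 in ATF7+/+ CD replicate 2, against 10.30 to 10.60 in the other 6 samples. Acss2 was at 9.79 in ATF7+/+ LPD replicate 6, against 10.61 to 11.17 in the other 7, and at 8.09 in wild-type CD replicate 2, against 9.03 to 9.68 in the other 6. Thrsp was at 8.70 in ATF7+/- CD replicate 5, against 10.79 to 11.47 in the other 7, and at 6.50 in that same wild-type CD replicate 2, against 8.99 to 10.81 in the other 6. Without ATF7+/- CD replicate 5, Thrsp passed in ATF7+/- over wild-type under CD; the lowest adjusted p in fits that left out 1 sample was 0.0272.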

How the results depend on the processing

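No call changed direction under any alternative: of 1134 values with another setting, 30 no longer passed and 23 newly passed, and of 1610 values with 1 sample left out, 56 no longer passed and 4 newly passed. Signs of values that did not pass in either setting changed in 29 and 36 cases. In the wild-type diet comparison, where 7 members were called, 3 were called with array weights, 4 with only the groups compared, 3 in array set B alone, 6 with all 48 arrays as samples (Me1 lost), and 4 to 7 with 1 sample left out. In ATF7+/+ offspring 4 were called in set A alone in place of 0. For the wild-type minus ATF7+/- difference (3 called) the fits without the filter, with only the groups compared and with all 48 arrays as samples gave 2 each, having lost Acly (adjusted p of 0.0557, 0.0546 and 0.0677), and set A alone gave 5; for wild-type minus ATF7+/+ (0 called) array weights gave 2, the array set as a block 1, and fits with 1 sample left out 0 to 1. Under the control diet, ATF7+/- over wild-type (4 called) gave 3 without the filter, with only the groups compared and with all 48 arrays as samples, having lost Fasn (adjusted p of 0.0579, 0.236 and 0.116), 2 with array weights, 6 with the array set as a block, by adding Acaca and Thrsp, 7 with set A only and 2 with set B only, and ATF7+/- over ATF7+/+ (0 called) gave 5 in set A alone. ATF7+/+ over wild-type (2 called) gave 1 without the filter, with quantile normalization, with the trended and robust variance prior and with the Y-linked covariate, 0 with only the groups compared and in set B alone, 5 in set A alone, and 0 to 2 with 1 sample left out. Of 13542 genes, set A alone called 1262 for ATF7+/- over ATF7+/+ and 2645 for ATF7+/+ over wild-type under this diet. The labels also differed in Y-linked level there: the centred mean on set A was 1.65 in ATF7+/+ CD, 0.05 in ATF7+/- CD and -0.05 in wild-type CD. The replicate block within each label gave 4 members for the wild-type minus ATF7+/- difference, by adding Acaca, changed no other member's call, and could not be fitted for comparisons between labels. Over all genes, 487 called in the wild-type diet comparison became 139 with only the groups compared, 1254 with that set as a block, 2118 with set A only, and 219 to 589 with 1 sample left out. The 86 of the wild-type minus ATF7+/- difference became 49 to 167 with 1 sample left out, 178 with array weights, 299 with that block, 280 for set A only and 181 for set B only, and the 224 of ATF7+/- over wild-type under CD became 69 with only the groups compared, 822 with that block, 898 for set A only and 447 for set B only. The cause was not tested. Where fewer samples or fewer groups enter, the spread is estimated from less data.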
